A study of Salmo salar with 8 samples.

Results

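CRTAM and 8 other T cell surface and lineage genes, not all particular to T cells (CD2, CD4, CD8B, CD28, CD96, BTLA, RUNX3 and BCL11B), were followed in adherent head kidney leukocytes (HKLs) of Atlantic salmon at Day 5 and Day 1 of culture. Of the 43689 probes on the array, 14 carried these 9 symbols in the study's list: 3 for RUNX3, 3 for BCL11B, 2 for CD96 and 1 for each of the others. They were chosen on the readout itself. A probe entered only if the study listed it as differing between the days and gave it 1 of these 9 symbols, so they are 9 of the 1451 genes named among 2139 listed probes, and the size and direction of their Day 5 difference are given as description with no test. CRTAM was 5.02-fold higher at Day 5, by 2.33 on the log2 scale (SE 0.31, n = 4 fish). The 12 other probes that could be fitted were all lower at Day 5, with a median change of -1.26, by between -0.86 for a CD96 probe and -1.81 for CD8B.

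T cells recognise antigen through the T cell receptor, and the surface proteins considered here act beside it: CD4 and the CD8 chains are coreceptors that bind MHC, CD2 and CD28 give adhesion and costimulatory signals, and BTLA restrains the response. CRTAM and CD96 belong to a small group of receptors that bind nectins and nectin-like molecules, and in mammals CRTAM appears on activated cytotoxic T cells and NK cells. RUNX3 and BCL11B are transcription factors of the lymphoid lineages, the first needed in mammals for the cytotoxic T cell fate and the second for commitment to the T cell lineage. The head kidney is the main blood-forming organ of bony fish and holds lymphocytes beside myeloid cells.

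Leukocytes from the head kidney of 4 fish were separated on a density gradient, left to adhere, and rinsed at 24 h and at intervals afterwards. From each fish, 1 sample was taken at 120 h after seeding (Day 5) and 1 at 24 h (Day 1), with no treatment at either time, so the 8 samples form 4 pairs. Day 5 samples were cells kept for the whole period in L-15 medium with serum and antibiotic, and Day 1 samples were cells from the same isolations taken when the first rinse was made. The age of the fish was not given in the sources used here. Each sample was labelled with Cy5 and hybridised to 1 array against a Cy3-labelled pool of all samples of the study. A further fish was removed only after hybridisation, so by the study's description the pool held its samples too. Every log2 ratio below is a sample against that pool, and each change is the Day 5 ratio minus the Day 1 ratio. The samples were mixed adherent cells, and in such bulk RNA fewer cells of a type and less RNA per cell cannot be told apart.

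The CRTAM probe (C217R051) carries the value that runs against the other genes, so the start of its coding frame is shown. It is read from the contig that the study's table pairs with this probe, 5′ to 3′, as 300 bases of an open frame of 121 codons, with the start codon in capitals.
CRTAM: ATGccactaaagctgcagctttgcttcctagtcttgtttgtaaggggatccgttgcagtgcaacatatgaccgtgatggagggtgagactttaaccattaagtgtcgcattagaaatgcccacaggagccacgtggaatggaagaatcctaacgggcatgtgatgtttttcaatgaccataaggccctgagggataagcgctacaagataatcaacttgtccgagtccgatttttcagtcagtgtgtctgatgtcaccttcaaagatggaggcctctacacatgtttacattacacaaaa

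The 8 arrays lay on 3 slides, and the third slide held only the Day 5 samples of Fish 2 and Fish 4, so slide and day were mixed in part. The image name of the Day 1 array of Fish 1 carried scan number 1 and those of all other arrays scan number 2. What that number stands for was not given. Between 40.4% and 51.3% of probes exceeded the background limit of their array in Cy5, the limit being the mean plus 2 SD of 153 negative control spots. The Day 5 array of Fish 1 had the highest negative control signal of the 8 (458, against 36.8 in the Day 1 array of the same fish, which was the lowest). Of 38695 probes tested across the array, 734 (1.90%) passed an adjusted p of 0.05 by limma with fish as a block, and 396 of them were higher and 338 lower at Day 5. With arrays centred on their median in place of loess, 364 were higher and 566 lower.

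Among the members, 2 of the 13 probes tested passed that threshold, CRTAM in the higher direction and RUNX3 C088R076 in the lower one. Neither call held with plain background subtraction, no background correction, the median signal per spot or slide as a fixed block. On the authors' processed values 8 of 14 member probes passed. There 1068 probes passed in all, more than the 734 here and from a smaller tested set. The members were also selected on those values. On the values computed here, the background was 1.02% of all tested probes for a higher call and 0.873% for a lower one. Of the probes the study had listed as lower, 32.3% passed as lower, and of those it had listed as higher, 31.8% passed as higher. For 11 of the 14 probes, 10 of them tested, all Day 5 values lay below all Day 1 values (5.91% of all tested probes). For CRTAM alone among the 14 they all lay above (5.36%), and for RUNX3 C088R028 and CD96 C102R128 the days overlapped. Because the same contrast chose the probes, nothing is read from these counts. The selection statistic was a paired SAM d on the authors' processed values; recomputed here it was 3.77 for CRTAM, -4.33 for BTLA and -3.16 for RUNX3 C088R076, and nearest the edge -1.65 for BCL11B C169R012. The listed probe nearest to 0 on the lower side stood at -1.614 and the probe just outside it at -1.613. On the higher side, where CRTAM lies, the cut was not reproduced so cleanly. The listed probe nearest to 0 stood at 1.58, and the highest probe not listed at 2.13. The recomputed test called 2047 of the 2139 listed probes.

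CRTAM gave log2 ratios of 0.78, 0.68, -0.46 and 0.36 at Day 5 in Fish 1 to 4, against -2.11, -1.73, -2.22 and -1.89 at Day 1. The Day 5 values averaged 0.34 ± 0.56 and the Day 1 values -1.99 ± 0.22 (SD, n = 4 each). Every Day 5 sample was above every Day 1 sample, with a wide gap between the days, and Fish 3 was the lowest fish on both. Within fish the change was 2.89, 2.41, 1.76 and 2.26, and no CRTAM spot was missing on any array. Fish 1 and Fish 3, whose 2 samples shared a slide, gave the largest and the smallest of these changes.

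**Figure D1:**
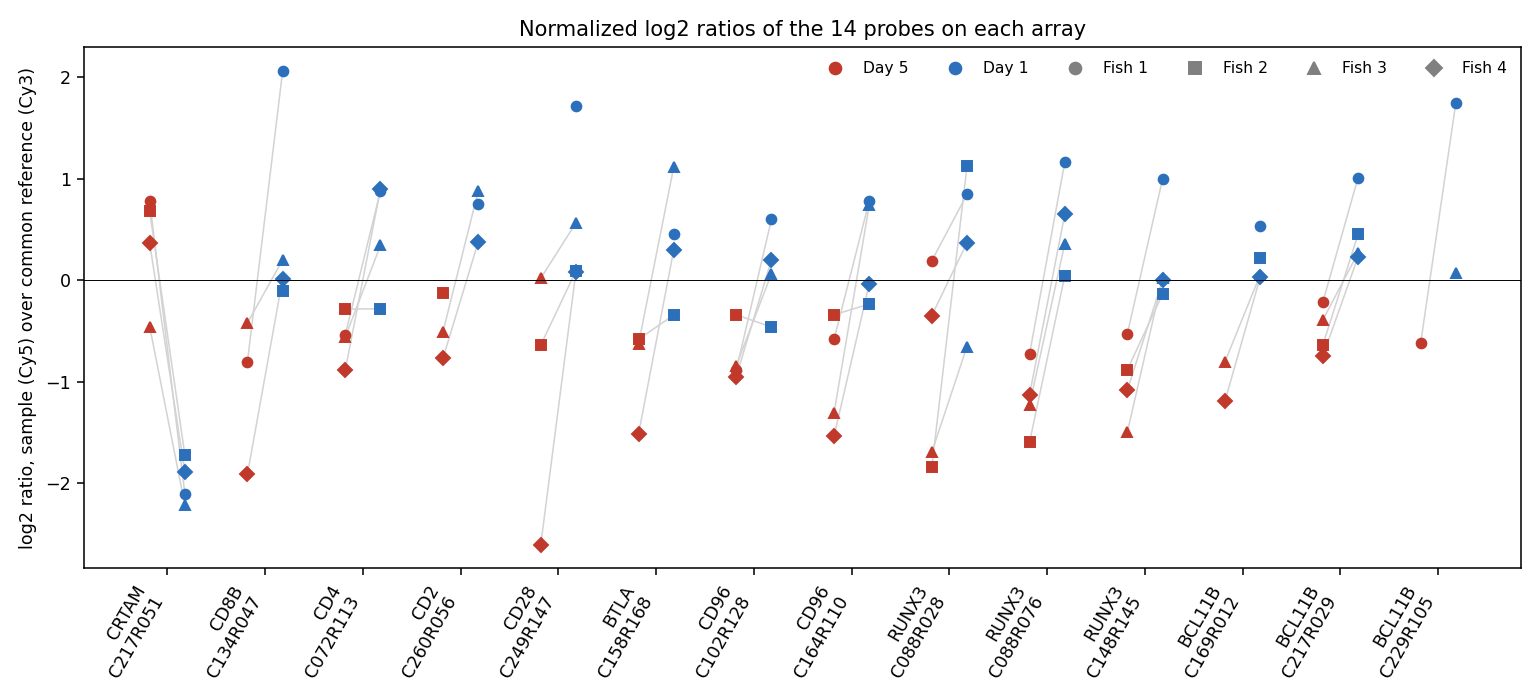
Log2 ratio of each sample against the common pool for the 14 probes, with Day 5 left of Day 1, 1 point per fish, and lines joining the samples of a fish. The CRTAM points lie between -0.46 and 0.78 at Day 5, above their Day 1 points, while the points of the other genes mostly lie below 0 at Day 5.

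The coreceptors were lower at Day 5. CD8B, a chain of the coreceptor of cytotoxic T cells, stood at -0.80, -0.42 and -1.91 at Day 5 in Fish 1, 3 and 4. At Day 1 it stood at 2.06, -0.11, 0.20 and 0.02 in Fish 1 to 4. The Day 5 spot of Fish 2 was left out because it did not exceed its local background by 2 SD. The days did not overlap, and the Day 1 sample of Fish 1 stood far above the other Day 1 samples. The change of -1.81 (SE 0.45, 3.50-fold lower) rested on 3 fish, with -2.87, -0.62 and -1.93 in Fish 1, 3 and 4, and it was -1.15 with slide as a fixed block.

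CD4, the coreceptor of helper T cells, gave -0.54, -0.29, -0.56 and -0.89 at Day 5 and 0.88, -0.28, 0.34 and 0.90 at Day 1. Its change was -1.03 (SE 0.35, 2.04-fold lower), and -1.96 on the authors' processed values. The days did not overlap, but only by the margin of Fish 2, which had nearly equal values on both days, a change of -0.0032. Fish 1, 3 and 4 changed by -1.42, -0.90 and -1.78. CD4 is a name of 2 loci in the RefSeq annotation of the salmon genome (Ssal_v3.1), and which of them the probe measures was not established. The other member symbols, CRTAM included, matched no locus there by name. Which salmon copy their probes measure was not established either.

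Of the costimulatory receptors, CD2, which binds adhesion partners on other leukocytes, had measured spots at Day 5 of -0.13, -0.51 and -0.77 in Fish 2, 3 and 4, against 0.76, 0.88 and 0.38 at Day 1 in Fish 1, 3 and 4. Only Fish 3 and Fish 4 had both days, and they gave -1.39 and -1.15. The days did not overlap, but the change of -1.27 became -0.65 when every spot was kept.

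CD28, the receptor for the B7 proteins of antigen-presenting cells, was measured at -0.64, 0.02 and -2.61 at Day 5 in Fish 2 to 4 and at 1.71, 0.09, 0.57 and 0.08 at Day 1 in Fish 1 to 4. Fish 4 at Day 5 was by far the lowest of the samples, and the remaining Day 5 values were close to the Day 1 values without overlapping them. The change was -1.32 (SE 0.46, 3 fish), and it became -0.64 without Fish 4 and -0.31 with slide as a fixed block, against -2.84 on the authors' processed values. The study's selected probes include a second CD28 entry averaged over several probes, while only 1 probe entered here under that symbol.

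BTLA, an inhibitory receptor of B and T cells, stood at -0.58, -0.63 and -1.52 at Day 5 in Fish 2 to 4, the Fish 1 spot being flagged, against 0.46, -0.34, 1.11 and 0.30 at Day 1. All Day 5 values were lower than all Day 1 values, although Fish 2 changed by only -0.24, against -1.75 and -1.82 in Fish 3 and 4. The change over these 3 fish was -1.27 (SE 0.41), and -2.07 with every spot kept. No Day 5 spot of BTLA was above the background limit of its array, so this is a difference from a level that was not measured.

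CD96 binds the same family of ligands as CRTAM, and its 2 probes moved the other way. Probe C164R110 gave -0.58, -0.34, -1.31 and -1.54 at Day 5 against 0.78, -0.24, 0.74 and -0.04 at Day 1, a change of -1.26 (SE 0.35). The other probe, C102R128, gave -0.89, -0.34, -0.84 and -0.95 against 0.60, -0.46, 0.06 and 0.20, a change of -0.86 (SE 0.34). For both probes Fish 2 was the exception, with changes of -0.11 and 0.12, and the last of these was the only one of 42 within-fish differences in the 13 other probes that was not lower at Day 5. Over the 8 arrays the probes correlated at r = 0.89, a figure that includes the difference between days. It was 0.69 after the mean of each day was removed.

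The RUNX3 probe C088R076 had the smallest spread between fish of the 8 probes with no missing spot (SD of the change 0.14). It stood at -0.73, -1.60, -1.23 and -1.13 at Day 5 and at 1.16, 0.04, 0.36 and 0.65 at Day 1. The days were clearly apart, and the 4 fish changed by -1.89, -1.64, -1.58 and -1.78, a mean of -1.72 (SE 0.29, 3.30-fold lower). Probe C148R145 changed by -1.22 (SE 0.30). Its highest Day 5 value, -0.53, lay below its lowest Day 1 value, -0.14.

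The RUNX3 probe C088R028 was less regular. It gave 0.19, -1.85, -1.70 and -0.35 at Day 5 and 0.85, 1.12, -0.65 and 0.37 at Day 1, so the days overlapped, and its mean change of -1.35 (SE 0.40) held -2.97 in Fish 2 and between -1.04 and -0.66 in the others. Without Fish 2 it was -0.81. The 3 RUNX3 probes correlated pairwise at r between 0.72 and 0.92 over 8 arrays, days included. After the mean of each day was removed, these values ran from 0.42 to 0.72.

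BCL11B was measured by 3 probes, of which only C217R029 gave a value on every array. That probe stood at -0.22, -0.64, -0.39 and -0.75 at Day 5 and at 1.01, 0.45, 0.27 and 0.23 at Day 1. Its 4 fish changed by -1.23, -1.09, -0.66 and -0.98, a mean of -0.99 (SE 0.29), with no overlap of the days. None of its Day 5 spots was above the background limit, so the Day 5 values are not levels of their own. Probe C169R012 changed by -1.04 in the 2 fish measured on both days. Probe C229R105 had 5 of 8 spots missing and was not tested. In its single complete pair, Fish 1, it stood at -0.62 at Day 5 and 1.75 at Day 1.

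**Figure D2:**
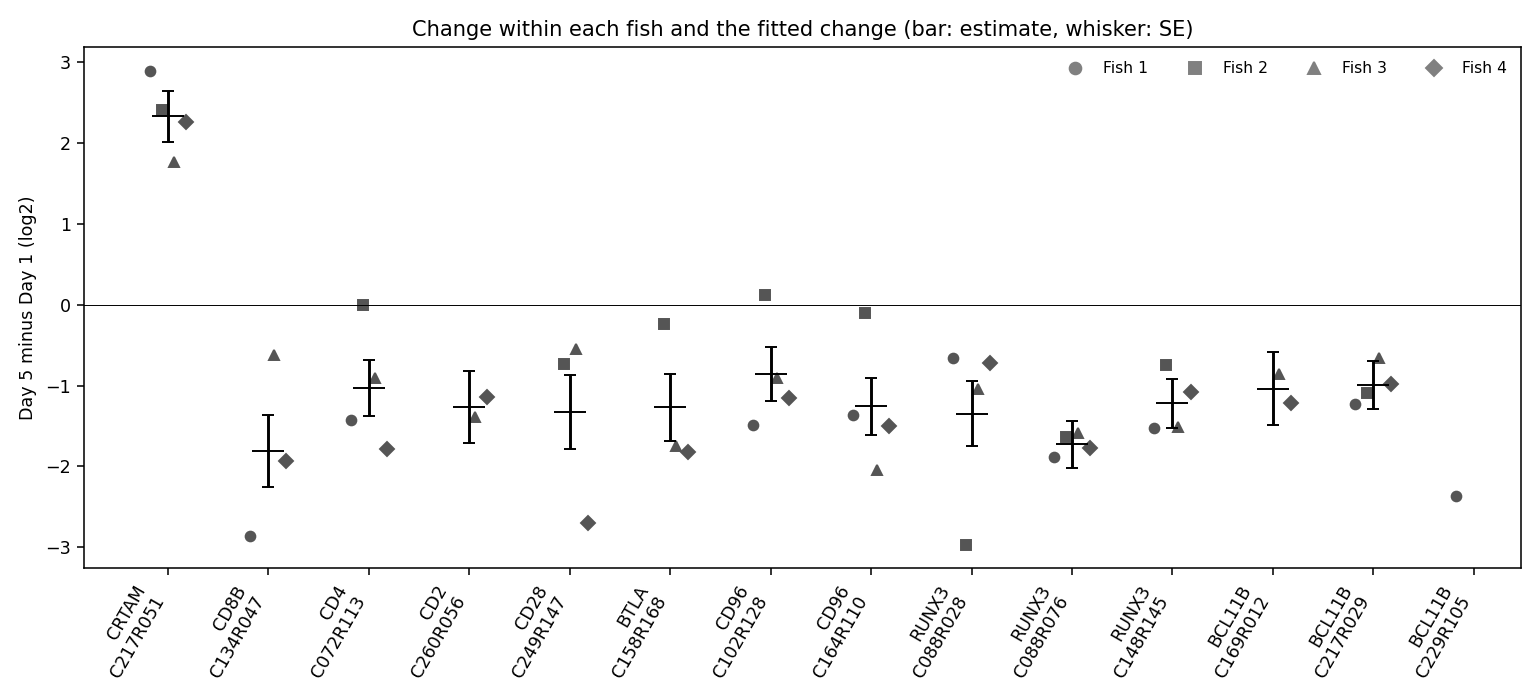
Change within each fish, Day 5 minus Day 1 in log2 units, for each probe, with 1 point per fish, a bar at the fitted change and whiskers of 1 SE. CRTAM lies at 1.76 to 2.89, and 41 of the 42 points of the other probes lie below 0, the exception being CD96 C102R128 in Fish 2 at 0.12.

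The fish contributed unequally. In Fish 1 to 4 the median change over the measured probes other than CRTAM was -1.49, -0.73, -0.97 and -1.36, and 8 of 9, 3 of 9, 6 of 12 and 10 of 12 probes were over 2-fold lower at Day 5. At Day 1 the sample of Fish 1 was the highest in 8 of the 11 probes measured in all 4 fish and that of Fish 2 the lowest in 7. At Day 5 that of Fish 4 was the lowest in 4 of 7. Missing spots were also uneven: 12 of 112 were missing, 9 at Day 5 and 3 at Day 1, 3 of them flagged by the image software and the other 9 too dim in Cy5.

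The Cy5 signal was set against the negative controls to see how far each value rested on measurable light. CRTAM exceeded the limit of its array by 15.0, 41.8, 13.9 and 29.0 times at Day 5, against 5.83, 2.64, 3.81 and 4.06 times at Day 1. It was therefore well above background in all 8 samples. All 14 probes were above the limit on every Day 1 array, and 10, 10, 8 and 8 of them on the Day 5 arrays of Fish 1 to 4. In the Cy3 pool all 14 were above the limit on every array. These counts use every spot, including those left out for a flag or for dimness against their local background. At Day 1 the spots left out were CD2 in Fish 2 and BCL11B C229R105 in Fish 2 and 4, so being above the limit did not make them measured values.

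At Day 5 the genes fell into those still above the limit and those at it. CD8B (1.62 to 3.69 times the limit at Day 5, against 4.28 to 68.7 at Day 1), RUNX3 C088R076 (2.73 to 4.63, against 9.56 to 72.3) and both CD96 probes were above it in all 4 Day 5 samples, as were RUNX3 C088R028 and CD4. The Day 1 sample of Fish 1 was the highest of its day for all 14 probes, CRTAM included, and its array had the lowest limit (159). The CD4 signal was only just above it, at 1.03 to 1.43 times the limit at Day 5 and 1.82 to 8.33 at Day 1. CD2 exceeded the limit in 3 of 4 Day 5 samples, CD28 in 2, and RUNX3 C148R145, BCL11B C169R012 and BCL11B C229R105 in 1 each. Some Day 5 spots counted here had been left out of the log2 ratios. They were CD8B in Fish 2 (2.612 times the limit), CD2 in Fish 1 (1.415), BCL11B C169R012 in Fish 1 (1.087) and BCL11B C229R105 in Fish 2 (1.048). For these BCL11B probes that was the only Day 5 spot above the limit.

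BTLA and BCL11B C217R029 were above the limit in none of the Day 5 samples, so their Day 5 levels are not known. For a rough figure, the Day 5 level was set to the higher of the probe's own signal and the dimmest signal above the limit on each array, in the normalized Cy5 channel. BTLA was then 2.36-fold lower at Day 5, its flagged Fish 1 spot included. This is not a strict bound, because a spot under the limit could exceed that dimmest signal after normalization. BTLA in Fish 3 at Day 5 did so, at 8.5 against 8.15 on the log2 scale. For BCL11B C217R029 the probe's own normalized signal was the higher value on every Day 5 array, so no figure apart from the measured values was obtained. Its normalized Cy5 signal averaged 8.42 ± 0.18 on the log2 scale at Day 5 and 9.43 ± 0.36 at Day 1 (SD, n = 4 each). The Cy5 values come from separate arrays and lack the correction that the ratio to the pool gives.

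**Figure D3:**
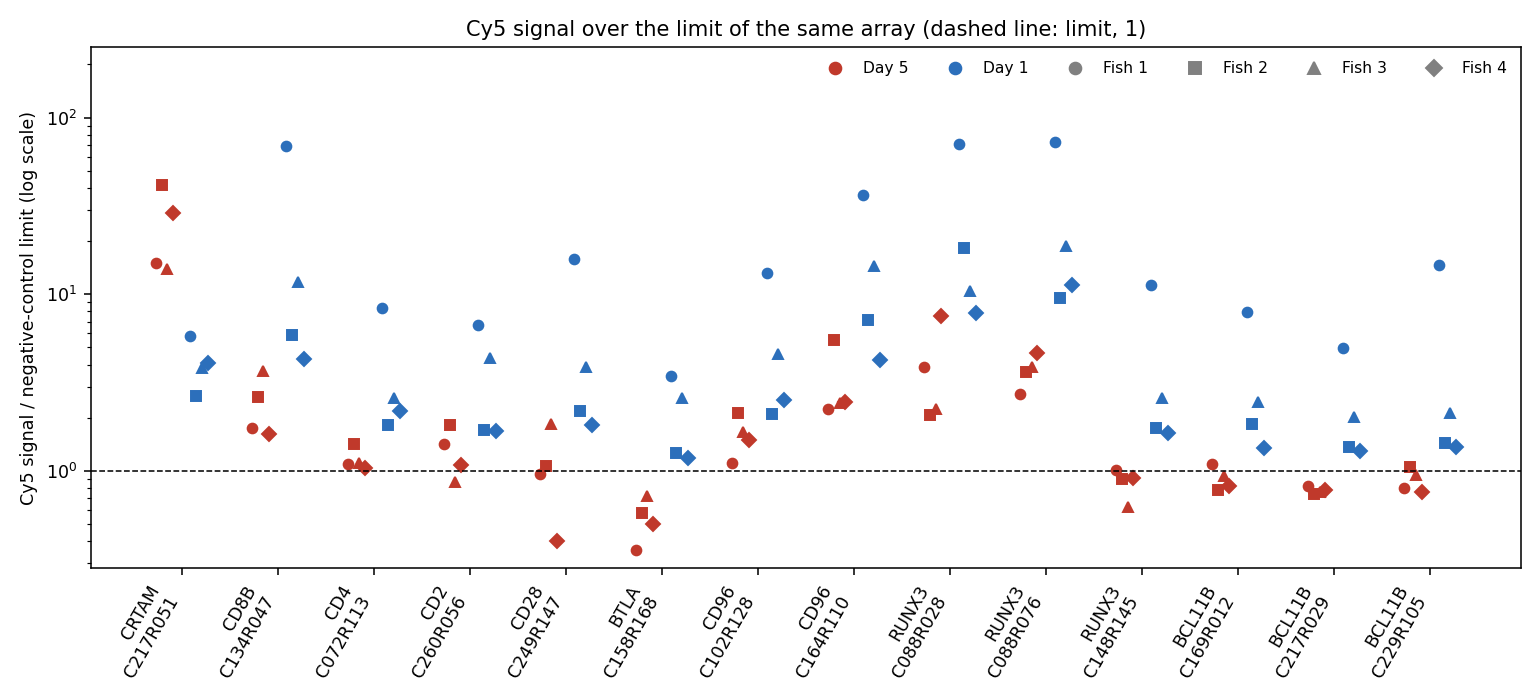
Cy5 signal divided by the background limit of the array (log axis) for each probe, with Day 5 left of Day 1 and 1 point per fish; the dashed line at 1 is the limit. CRTAM lies at 13.9 to 41.8 at Day 5 and 2.64 to 5.83 at Day 1, while BTLA lies below the line in every Day 5 sample. Spots left out of the log2 ratios are drawn too.

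To set CRTAM against the rest, the probes of each gene were averaged and the 8 other genes were averaged in turn. Only measured spots entered. At Day 5 this left out CD28, BTLA and CD2 in Fish 1 and CD8B in Fish 2, and at Day 1 CD2 in Fish 2. The mean log2 ratio of the other genes was -0.57, -0.58, -0.66 and -1.35 at Day 5 and 1.08, -0.05, 0.44 and 0.28 at Day 1. The days did not overlap, and Fish 4 was lowest at Day 5 and Fish 1 highest at Day 1. The change of CRTAM minus the mean change of the other genes was 4.55, 3.05, 2.86 and 3.88 in Fish 1 to 4, a mean of 3.59 ± 0.78 (SD, n = 4). Only genes measured on both days of a fish entered, so the 8 genes were complete in Fish 3 and Fish 4 alone. The sign was the same in every fish, as the choice of members fixes. The size was largest in Fish 1 and smallest in Fish 3, over different genes. With every spot kept, so that all 8 genes entered in every fish, the mean was 3.70. In the pairs of Fish 1 and Fish 3, which lay on a single slide each, the mean was 3.71.

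Within a day, 7 of the 8 genes varied together to some degree. After the day means were removed, the correlation of each gene with the mean of the remaining genes over up to 8 arrays was 0.89 for CD8B, 0.81 for CD96, 0.80 for CD28, 0.77 for BCL11B, 0.66 for CD4, 0.59 for CD2 and 0.56 for BTLA. RUNX3 (0.10) and CRTAM (-0.16) stood apart from these. For comparison, the median over 26000 other probes of r with the mean of the 8 genes was -0.0049 (quartiles -0.39 and 0.38), and over 827 probes listed as lower it was 0.22 (quartiles -0.17 and 0.56). All of these points share the arrays, the pool and the background of each array, and the high Day 1 sample of Fish 1 enters each of them. The means again lack the genes whose spots were missing on an array.

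**Figure D4:**
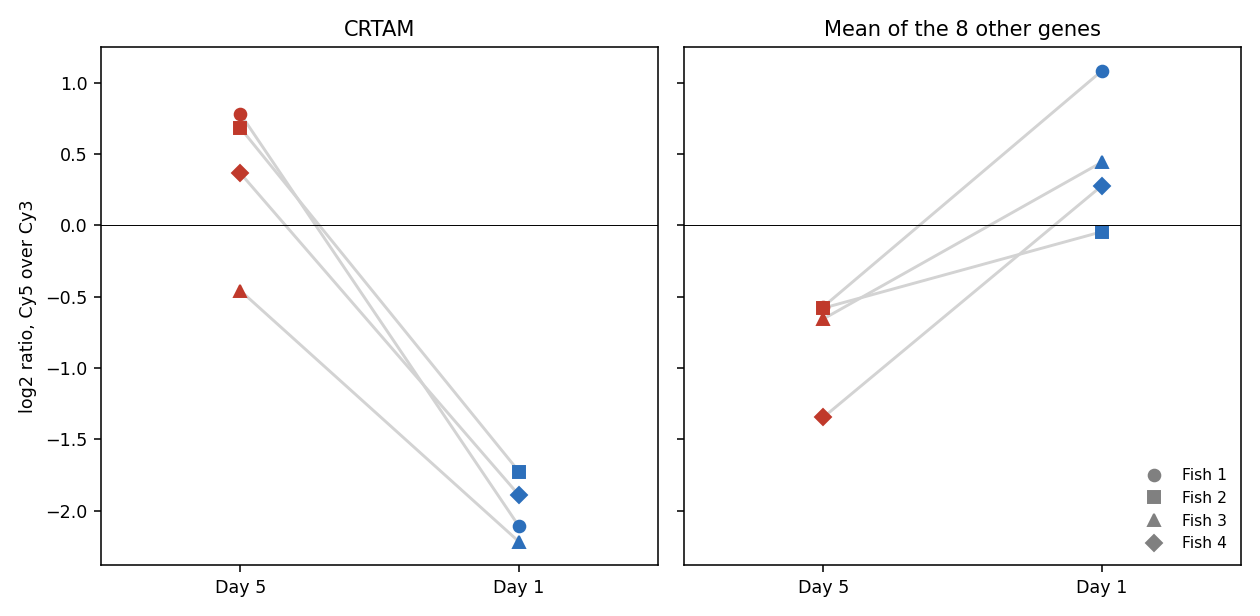
Log2 ratio against the pool of CRTAM (left panel) and of the mean of the 8 other genes (right panel), Day 5 left of Day 1, 1 marker per fish, with lines joining the samples of a fish. Each mean takes the genes measured on that array, and some were missing in Fish 1 and Fish 2. Every CRTAM line is higher at Day 5 (-0.46 to 0.78, against -2.22 to -1.73), and every line of the other genes is lower (-1.35 to -0.57, against -0.05 to 1.08).

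Other named probes with a like pattern were ranked by Pearson's r over the 8 arrays, among 1666 probes with a symbol and no missing value. Nearest to CRTAM were TAPBP (r = 0.979), which helps load MHC class I, then SMIM24 (0.975), RNF138 (0.975), MUC3A (0.973) and MFAP4 (0.973). Their Day 5 changes were 1.09 for TAPBP, 1.31 for SMIM24 and 3.03 for RNF138, and MUC3A and MFAP4 were not above the background limit on any Day 1 array, so no fold is given for them. Nearest to the mean of the 8 other genes were QRICH2 (0.991), MBL2 (0.980), DCAF4 (0.974), the immunoglobulin heavy chain probe IGH C149R116 (0.974) and ITGA2B (0.973), an integrin chain of thrombocytes. QRICH2 changed by -1.82 and DCAF4 by -1.03, and MBL2, IGH C149R116 and ITGA2B were not above the limit on any Day 5 array. Since symbols were known only for probes listed as changed, every candidate moved with day, and the values of r are a ranking only.

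The rest of the T cell machinery was described through gene lists, again only where the study's table named a probe, so these probes too were selected on the same contrast. Beside the median change of each list stand -1.21 for the 983 tested probes listed as lower, 1.27 for the 1100 listed as higher and -0.0015 for all tested probes. Of 16 symbols of the T cell receptor complex and further coreceptors, 2 were named: 9 probes for the receptor alpha chain TRA, none past the threshold, with changes of -1.21 to -0.77, and CD5, a brake on receptor signalling, which fell by 1.42. All 10 probes were lower and 1, CD5, passed the threshold (median -0.92). The TRA probe with the largest change, C264R152, was not above the background limit on any Day 5 array. The CD3 chains and the kinases LCK and ZAP70 had no named probe and were not analysed here.

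Among 6 probes of T cell receptor signalling, the adaptors SH24A (-2.62) and LIME1 (-2.42) passed as lower and none as higher (median -1.11), and they were above the limit on 1 and 2 of the 4 Day 5 arrays. CD5 was also the only named gene of the further costimulatory and inhibitory receptors. Lineage transcription factors other than the members had 13 tested probes, of which 5 passed as lower and none as higher (median -1.40): both KLF2 probes (-3.88 and -2.90), a factor of resting lymphocytes, BCL11A (-2.37), ID3 (-1.94) and BACH2 (-1.40). BCL11A is best known from B cells and blood progenitors. KLF2 is not particular to lymphocytes either: the study cites a fall of KLF2 as human monocytes become macrophages. Of 5 probes of cytokine and chemokine receptors, 4 passed as lower, namely 2 CXCR4 probes, IL2RB (-1.74) and CXCR3 (-1.65), and IL2RG, the common gamma chain, passed as higher (1.47). CXCR4 C218R124 changed by -1.58, and CXCR4 C252R066 was not above the limit on any Day 5 array, so no fold is given for it. IL2RB was above it on 2 of the 4.

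A list of ligands of the members and of the B7 family, which other cells carry, also held the galectin LGALS9. Of its 15 probes, 14 had higher values at Day 5, and 4 passed as higher and 1 as lower (median 1.53). Those past the threshold were 2 probes of CD276, a B7 protein, LGALS9 (1.88) and HLA-DPA1 (1.76), an MHC class II chain, as higher, and VTCN1 (-1.42) as lower. CD276 C010R015 changed by 2.32, and CD276 C059R068 was not above the background limit on any Day 1 array. Of 9 cytotoxic effector probes, 7 had higher values at Day 5 and 2 had lower ones, GZMK (-1.11) and the perforin PRF1 (-0.80). These 2 were above the background limit on 2 and 1 of the 4 Day 5 arrays. Past the threshold were 4 as higher and none as lower (median 1.56): 3 probes of the granzyme GRAA, and NKL (1.56), an NK-lysin. GRAA C171R099 changed by 2.16 over 3 fish and was above the background limit on 4 of 4 Day 5 arrays and 1 of 4 Day 1 arrays. The other GRAA probes were above it on 2 Day 5 arrays and on none at Day 1, so the size of their change is not known. The mean log2 ratio of the cytotoxic list was 0.15, 0.56, -0.21 and -0.53 at Day 5 against -0.72, -0.67, -0.84 and -0.54 at Day 1, so the days were apart by a small margin, and the values of Fish 4 were almost equal, while its CRTAM change was 2.26.

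**Figure D5:**
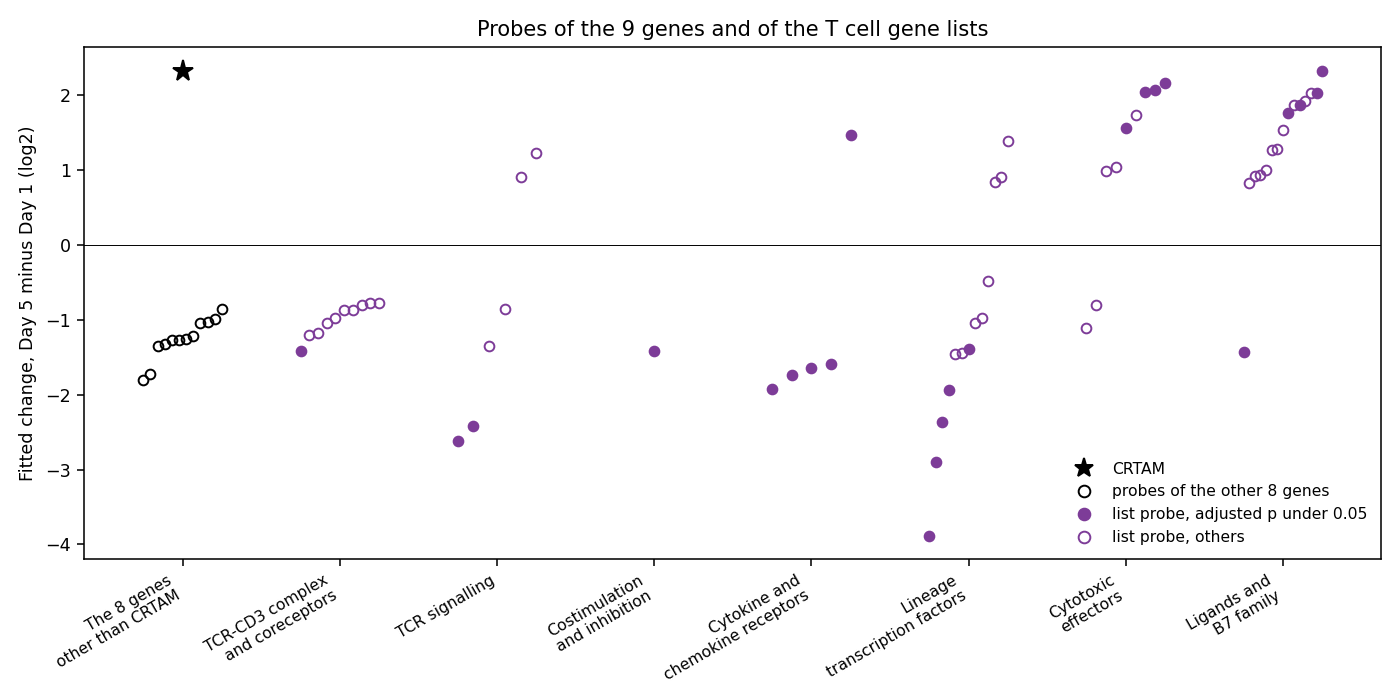
Fitted change, Day 5 minus Day 1 in log2 units, of every tested probe, 1 point each, for the 9 genes (first column, CRTAM as a star) and each T cell gene list, with filled points for list probes past the threshold. CRTAM lies at 2.33, near the top of the cytotoxic and ligand columns, and the other 8 genes at -1.81 to -0.86.

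Markers of other blood cells were described in the same way, again only from probes that the study listed as differing between the days. That they differed was therefore fixed by the choice. Of all probes listed as lower 32.3% passed as lower, and of those listed as higher 31.8% passed as higher. All 16 tested macrophage probes (5 of 6 symbols named) were higher at Day 5 and 10 passed, and the list mean lay between 0.41 and 0.73 at Day 5 and between -1.62 and -0.76 at Day 1. Of 43 B cell probes, 42 were lower and 21 passed as lower, and 1 passed as higher, with list means between -1.31 and -0.65 at Day 5 and between -0.42 and 0.22 at Day 1. Erythroid probes were lower in 18 of 19, with 15 past the threshold and list means of -1.80 to -1.09 at Day 5 and 0.08 to 1.18 at Day 1.

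The 3 neutrophil probes were all lower, 2 past the threshold, with list means of -1.48 to -0.69 at Day 5 and 0.40 to 0.52 at Day 1. The 4 thrombocyte probes were all lower, none past the threshold, at -1.05 to -0.33 and 0.18 to 0.89. The T cell marker list itself, which holds CD2, CD4, CD8B and CD28 beside TRA and CD5, lay at -1.43 to -0.40 at Day 5 and 0.04 to 1.29 at Day 1, with all 14 probes lower and 1 past the threshold, and 9 of its 15 symbols were not named. NK and cytotoxic markers were mixed, with 4 of 8 probes past the threshold as higher and 1 as lower, and list means that overlapped between days (-0.76 to 0.15 at Day 5, -0.46 to 0.24 at Day 1). The higher calls are the GRAA probes and NKL and the lower call is IL2RB, all counted above in other lists. The remaining tested probes of this list were lower and did not pass. The part that any of these other cell types had in the values of the members was not tested.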

How the data were processed

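The members and gene lists were chosen with earlier results of these data known. The authors scanned 2-colour arrays (Cy5 sample, Cy3 pool of all samples), extracted spot intensities with ImaGene 9.0, and deposited both these scanner intensities and their own log2 ratios (marray background correction, loess, low-quality spots removed, probes with many missing values omitted, missing values imputed). Their list came from a paired SAM test at a false discovery rate of 0.05. The values here were recomputed from the deposited mean intensities with limma 3.58.1 in R 4.3.3 (statmod 1.5.0): normexp background correction with an offset of 50, loess within arrays, and control spots (1531 of 45220) given no weight. A spot counted where it was unflagged and exceeded its local background by 2 SD in both channels. Probes with over 2 of 8 values missing were left out, and Benjamini-Hochberg adjustment ran over all 38695 tested probes, with fish as a block.

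Day 5 and Day 1 samples of the same number came from the same fish, which is the pairing used. Deviations from the day means correlated within pairs at only -0.05, -0.08, 0.08 and 0.03. The authors' log2 ratios correlated with those computed here at r of 0.794 to 0.897 per array, and their columns had medians of -0.079 to -0.024. Symbols were taken from the study's annotation of its listed probes and not from its statistics. All 14 member probes are named, with the 5 probes most like CRTAM and the other genes. From each other list only probes past the threshold (up to 4 genes) are named. TRA, GZMK and PRF1 are exceptions, added after their values were seen. The calculation was checked on simulated data. The study left out a further fish after hybridisation. It named a labelling error as the reason, and elsewhere that this fish was the exception when samples clustered by day. Agreement between fish is therefore agreement among those kept after that step. The fish left out and the RT-qPCR samples were not analysed here.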

Additional observations from a re-analysis of the deposited data

Results flagged for a closer look

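In groups of 4 fish, the highest or lowest value was compared with the rest by Dixon's gap ratio at its usual critical value. Of 103 such groups, 21 held a value far from the others, 16 of them on Fish 1 and 12 on the Day 1 array of Fish 1. Chance marks about 1 in 20 groups, and the groups share arrays, so the 21 are not separate events.

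The Day 1 sample of Fish 1 stood high for CD8B (log2 ratio 2.06, others -0.11 to 0.20) and RUNX3 C148R145 (1.00, others -0.14 to 0.02). Its Cy5 signal over the background limit was also far above that of the other Day 1 samples for CD8B (68.7, others 4.28 to 11.8), RUNX3 C088R076 (72.3), RUNX3 C088R028 (71.2), RUNX3 C148R145 (11.3), CD28 (15.8), CD4 (8.33), BCL11B C169R012 (7.96) and BCL11B C229R105 (14.7). The same array was the highest of Day 1 in the mean of the T cell receptor list (1.15) and of the thrombocyte markers (0.89). It alone carried scan number 1 in its image name, and the part of the scan in these values was not tested.

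At Day 5, Fish 4 stood low in the mean of the 8 genes other than CRTAM (-1.35, others -0.66 to -0.57) and in the T cell markers (-1.43). These means cover different genes between fish. CD28, BTLA and CD2 were missing in Fish 1 and CD8B in Fish 2. Fish 4 kept CD28 at -2.61 and CD8B at -1.91. Of the genes with every spot measured, CD4 and CD96 were lowest in Fish 4 and RUNX3 in Fish 3. The part of the missing spots in this flag was not tested. Fish 1 at Day 5 was low in the macrophage markers (0.41) and high in its median Cy5 signal (594), the mean of its negative controls (458) and its background limit (693). Fish 2 stood apart in the change of RUNX3 C088R028 (-2.97, others -1.04 to -0.66), in that of the mean of the CD96 probes (0.0079, others -1.48 to -1.33), and in the Day 5 signal of CD96 C164R110 over the limit (5.48, others 2.25 to 2.46). No CRTAM value was among the 21.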

How the results depend on the processing

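CRTAM changed by 2.14 to 2.63 under every setting tried, and its Day 5 samples stayed the higher ones. Of 203 values of the member probes under alternatives, 189 moved by less than 1 SD of that probe's change between fish, 14 moved further and 0 changed sign. For a probe that varied much between fish this is a wide margin. That SD was 1.19 for CD28, so its move from -1.32 to -0.31 stayed within it. The contrast of CRTAM with the 8 other genes was 3.62 with no replicate block (fish not paired) and 4.65 with the authors' processed log2 ratios, where missing spots had been imputed and whose median over the 13 other probes was -1.83, and it ran from 3.26 to 3.83 when 1 fish was left out. On the authors' values BTLA changed by -2.76, CD28 by -2.84, CD4 by -1.96 and BCL11B C217R029 and C169R012 by -1.89 and -2.08, and with the median signal per spot BCL11B C169R012 changed by -1.56.

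The counts of calls depended more on the processing. By limma, 734 probes and 2 members passed. With no replicate block 887 probes passed, and with slide as a random block 986. With plain background subtraction or no background correction, 0 probes and 0 members passed (4187 and 4362 at an unadjusted p under 0.05, against 5116). With the median signal per spot the counts were 19 and 0, with no spot filter 461 and 2, and without loess 930 and 5. With slide as a fixed block, a setting added after seeing the data, they were 60 and 0. On the authors' values, on which the members were selected, 1068 probes and 8 members passed, from a smaller tested set. Paired SAM on the scanner values, run only on probes with no missing value, called 1212 probes and 4 of the 8 members tested. On the authors' values, also added later, paired SAM called 2048 probes and all 14 members. That run repeats the test that chose the members, so its 14 calls add nothing to that choice. Leaving out 1 fish gave 203 to 767 probes and 1 to 3 members: 290 probes without Fish 3, 203 without Fish 4, and in both cases only CRTAM of the members. Among probes with no missing value, and in SAM on the scanner values, 7 of 8 members tested were lower. With a limit of 3 SD in place of 2, the Day 5 array of Fish 1 had 6 members above it. The causes were not tested.

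In the lists, the authors' values gave 3 lower calls for the T cell receptor complex, 1 higher for signalling, 1 lower for the cytotoxic genes, and 0 higher and 2 lower for cytokine and chemokine receptors. The median of the NK markers was -1.45 over 9 probes there, against 0.38 over 8 here. In both, 4 probes were higher, and the added probe was a lower one, so the medians cover different probes and are not compared. With no replicate block, 7 ligand probes and 1 lineage factor were called higher. Of 478 values of the 32 other named probes, with TRA, GZMK and PRF1 left out, 274 stayed on their side of the threshold, 201 fell short of it, 3 newly passed and 0 reversed.

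With 4 fish and 1 array per sample the precision is limited by the number of arrays. BTLA, BCL11B, CD28, CD4, CD2 and RUNX3 C148R145 lay near or under background at Day 5, so their changes rest on dim spots, and 9 of the 12 missing spots were Day 5 spots. Slide and day overlap in part, and dyes were not swapped. Symbols come only from probes listed as changed, so members of a family with no such probe are not seen.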
